A study of Drosophila melanogaster with 6 samples.

Results

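The spliceosome removes introns from pre-mRNA. It is assembled stepwise on each intron from small nuclear ribonucleoproteins (snRNPs), particles of 1 small nuclear RNA and its proteins. The U1 and U2 snRNPs mark the 5′ splice site and the branch point, the U4/U6.U5 tri-snRNP then joins to form the B complex, and the Prp19 complex accompanies the activation of the catalytic core. SF1 recognizes the branch point before U2 is bound, and Hrb87F is an hnRNP protein that binds pre-mRNA.

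A list of 38 core spliceosome genes was chosen by FlyBase symbol and divided into 10 complexes. Exon-bin counts, the reads counted per stretch of exon between neighbouring exon boundaries, were held for 35 of the 38 genes, of 16428 genes in the whole series. These 35 genes had 128 exon bins, and their summed counts ran from 26 to 5850 per library. Sf3b3 and LSm3, whose exons overlap another gene on the same strand (lncRNA:CR45184 and CG33108), were held only in the counts per gene, and LSm4 was not analysed here.

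Poly-A mRNA was sequenced from indirect flight muscle (IFM), the fibrillar muscle that powers the wings, dissected from Drosophila melanogaster pupae at 72 h after puparium formation (APF) and kept at 27 °C. SF1-IR flies carried Mef2-Gal4 and a hairpin against SF1 (GD5176), Hrb87F-IR flies carried Mef2-Gal4 and a hairpin against Hrb87F (TRiP.JF01757), and WT flies carried Mef2-Gal4 after a cross to w1118. Mef2-Gal4 drives the hairpins in all muscle, every group carries the driver, and each knockdown comes from 1 hairpin line. There were 2 libraries per group, each from the pooled IFM of about 100 flies, and the sex of the animals was not given in the sources used here.

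The exon-bin counts summed to between 63393347 and 72057010 per library. Levels are given as CPM, counts scaled to the library total after TMM normalization. The 8 IFM marker genes were detected in every library, and their summed level was 138298 and 139451 CPM in SF1-IR, 147076 and 129048 CPM in Hrb87F-IR, and 191891 and 216752 CPM in WT, lower in all 4 knockdown libraries than in WT. The part of this difference in the results on the spliceosome genes was not tested. The 6 fat body markers with counts summed to 328 and 313 CPM in SF1-IR, 245 and 247 CPM in Hrb87F-IR, and 282 and 259 CPM in WT, above WT in SF1-IR and below it in Hrb87F-IR. The 4 neuron markers with counts summed to 409 and 317 CPM in SF1-IR, 379 and 386 CPM in Hrb87F-IR, and 290 and 306 CPM in WT, higher in all 4 knockdown libraries, and the part of either list in the results was not tested. Marker sums of testis, tendon, trachea, haemocyte and proliferating cells overlapped between each knockdown and WT, and no marker with counts was at 0 in all libraries. SF1 itself was at 25.6 and 19.3 CPM in the libraries labelled SF1-IR, against 24.6 and 29.9 CPM in WT. No drop of SF1 mRNA against WT could be seen (log2 fold change -0.28, SE 0.17, edgeR adjusted p = 0.473). In Hrb87F-IR, SF1 was at 31.9 and 31.3 CPM, above both SF1-IR libraries. The log2 fold change of SF1-IR over Hrb87F-IR was -0.49 (SE 0.17, edgeR adjusted p = 0.162). Hrb87F was at 14.8 and 18.1 CPM in Hrb87F-IR, against 29.8 and 30.5 CPM in WT (log2 fold change -0.87, SE 0.13, edgeR adjusted p = 0.0347). Directions for SF1-IR therefore rest on the label of these libraries. In bulk muscle, fewer cells of a type and less RNA per cell cannot be told apart.

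Core spliceosome genes were expressed at a modest level in IFM, above the median gene. Per kb of exon bins, the median of the 35 genes was 6.60 CPM (SF1-IR), 5.14 CPM (Hrb87F-IR) and 5.89 CPM (WT), and the median of the 11753 genes that passed the filter on low counts was 2.58, 2.43 and 2.47 CPM per kb in the same groups. All 35 genes passed that filter. The highest level in WT was that of SmD2, an Sm ring protein, at 31.9 CPM per kb, and the lowest was that of pea, the fly Prp22 helicase that releases the spliced mRNA, at 1.29 CPM per kb. The WT libraries of neighbouring genes in this order overlapped for 28 of 34 neighbours, so that the order is coarse. Genes with many short bins are favoured on this scale, because a read can be counted in more than 1 bin.

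Members of 1 complex differed widely in their levels per length. In the Sm ring, the heptamer that encircles the U1, U2, U4 and U5 RNAs, SmD2 stood at 31.9 CPM per kb in WT and SmD1 at 1.61 CPM per kb. Within SF3b, the part of U2 that holds the branch point, Sf3b6 was highest, at 22.2 CPM per kb in WT, and Sf3b1, which contacts the branch point region, was lowest, at 5.75 CPM per kb. In SF3a, Sf3a2 reached 7.53 CPM per kb and noi, the fly Sf3a3, 3.86 CPM per kb in WT. Of the U1 snRNP genes, snf, which encodes an RNA-binding protein shared by U1 and U2, was at 19.4 CPM per kb and snRNP-U1-70K at 5.23 CPM per kb in WT. U2A, the partner of snf in U2, was at 1.46 CPM per kb. In the Prp19 complex and related genes, Bx42 (the fly SKIP) was at 6.03 CPM per kb and Cdc5 at 3.18 CPM per kb in WT. Of the U2-associated factors, barc (Tat-SF1) was at 21.1 and hfp (PUF60) at 13.7 CPM per kb in WT. LSm7, of the ring on the U6 RNA, stood at 7.12 CPM per kb, and Prp18, a factor of the second catalytic step, at 2.91 CPM per kb.

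**Figure D1:**
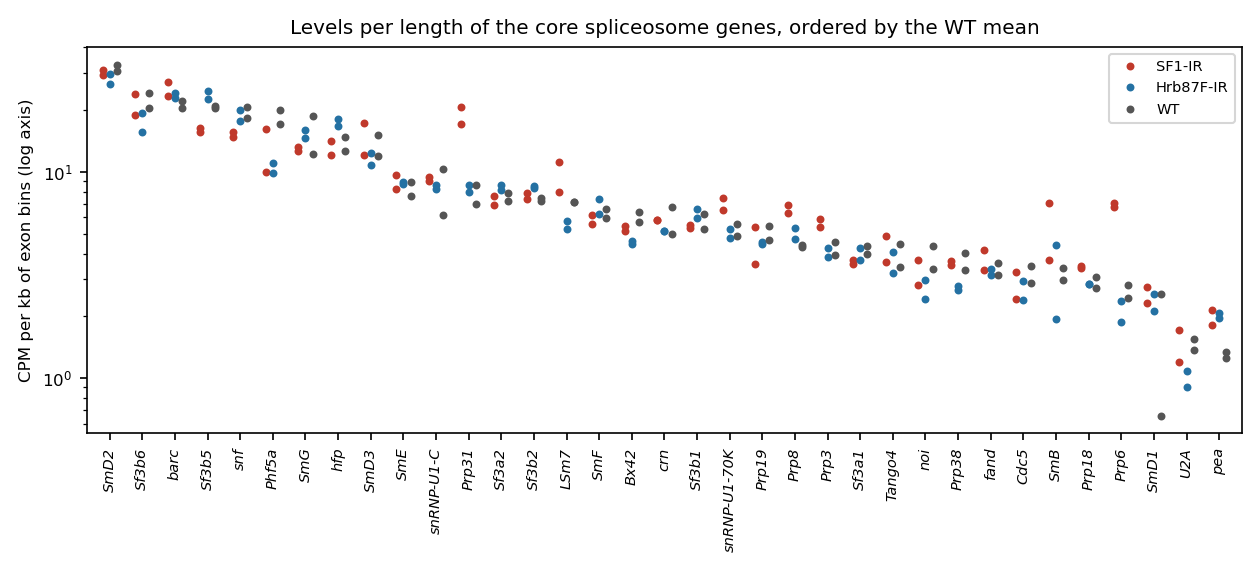
Level of each of the 35 core spliceosome genes in CPM per kb of exon bins (log axis), genes ordered by their WT mean. Each point is 1 library (SF1-IR left, Hrb87F-IR middle, WT right); SmD2 is highest in WT (31.9) and pea lowest (1.29), and the SF1-IR points of Prp31 and Prp6 stand above those of the other groups.

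In SF1-IR the core spliceosome genes had a median change near 0, and the 2 members called were genes of the tri-snRNP. Prp6 and Prp31 rose at an adjusted p under 0.01, 2 of 35 genes tested (5.71%), where 1.27% of all 11753 genes were called higher, and no member was called lower, where 1.41% of all genes were. At an unadjusted p under 0.05, 6 members were higher (17.1%, against 8.26% of all genes) and 1 was lower (2.86%, against 11.4% of all genes). The members' median log2 fold change was 0.00, beside -0.02 over all genes, and 17 members were above 0 and 18 below. A change of less than 0.5 in either direction was found for 29 of 35 members (82.9%) and for 66.1% of all genes.

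In Hrb87F-IR no core spliceosome gene was called, where 7 of 11753 genes (0.0596%) were called by edgeR. At an unadjusted p under 0.05, 2 members were higher (5.71%, against 7.75% of all genes) and 2 were lower (5.71%, against 7.41%). At an adjusted p under 0.05 there were no members, where 61 of all 11753 genes were higher and 147 lower. By DESeq2, no member was called either. The members' median log2 fold change was -0.05, beside -0.03 over all genes. A change of less than 0.5 was found for 30 of 35 members (85.7%) and for 63.8% of all genes.

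**Figure D2:**
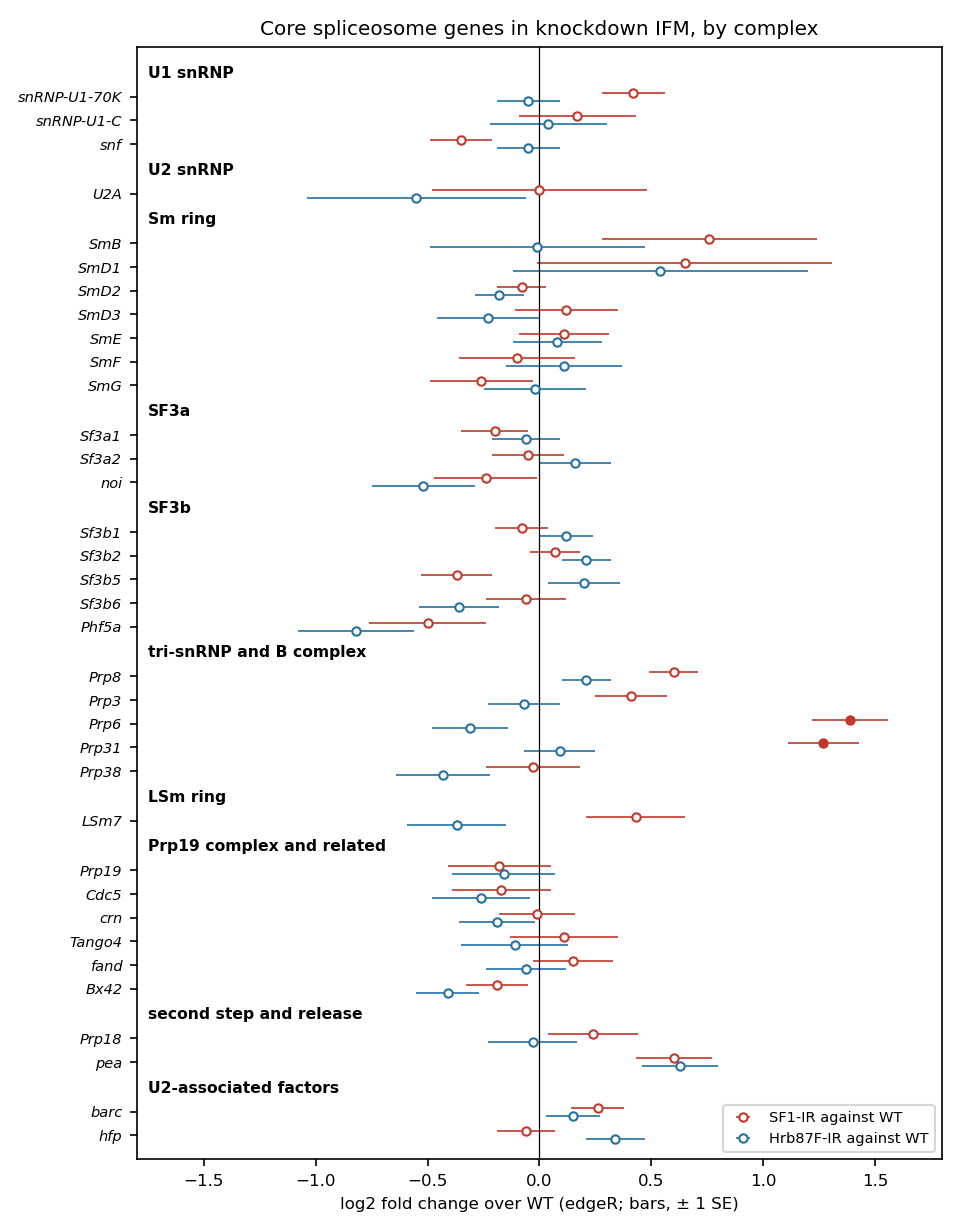
Log2 fold change of the 35 core spliceosome genes over WT in SF1-IR (red) and Hrb87F-IR (blue), grouped by complex, with bars of 1 SE from edgeR. Filled points passed an adjusted p of 0.01: Prp6 (1.39) and Prp31 (1.27) in SF1-IR, and none in Hrb87F-IR.

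The tri-snRNP and B complex list held Prp8, Prp3, Prp6, Prp31 and Prp38. Of these 5 genes, 4 were higher in SF1-IR than in WT at an unadjusted p under 0.05 (80%, against 8.26% of all genes). Of the 5, 2 were called higher (40%, against 1.27% of all genes), and the median log2 fold change was 0.60. Of the other 30 genes tested, 2 were higher at an unadjusted p under 0.05 (6.67%, against 8.26% of all genes) and 1 was lower (3.33%, against 11.4%). None of these 30 was called, where 1.27% of all genes were called higher and 1.41% lower, and their median was -0.03. In Hrb87F-IR the 5 genes had a median of -0.07, from -0.43 to 0.21. None had an unadjusted p under 0.05 there, where 7.75% of all genes were higher and 7.41% lower.

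Prp6, known from yeast and human as the protein that bridges U5 with U4/U6, showed the largest change of the list. Its level was 22.7 and 23.7 CPM in SF1-IR, against 9.49 and 8.21 CPM in WT. The SF1-IR libraries were thus both above WT with a wide gap (log2 fold change 1.39, SE 0.17, edgeR adjusted p = 0.00586). In Hrb87F-IR, Prp6 was at 7.98 and 6.28 CPM, below both WT libraries (log2 fold change -0.31, SE 0.17, edgeR adjusted p = 0.463). Prp6 (FBgn0036828) lies on chromosome 3L from 18905372 to 18908974 on BDGP6.22, and its exons overlap those of COX6AL2 and Ir75d on the opposite strand.

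Prp31, a U4/U6 protein that steadies the particle for its union with U5, was at 31.6 and 38.5 CPM in SF1-IR, against 13 and 16.1 CPM in WT. Both SF1-IR libraries were again well above WT (log2 fold change 1.27, SE 0.16, edgeR adjusted p = 0.0063). In Hrb87F-IR it was at 16.1 and 14.8 CPM, overlapping WT (log2 fold change 0.09, SE 0.16, edgeR adjusted p = 0.842). Prp31 (FBgn0036487) lies on chromosome 3L from 15159100 to 15161138 and overlaps CG7011 on the opposite strand. The strand setting of the counting is not given in the sources used here, so both genes were also fitted from bins that overlap no other gene's exon. The log2 fold change in SF1-IR was then 1.33 for Prp6 (edgeR adjusted p = 0.0089) and 1.25 for Prp31 (edgeR adjusted p = 0.00965).

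The size of these changes held when libraries were left out, but the calls did not. Without any 1 of the 6 libraries (SF1-IR 1 or 2, Hrb87F-IR 1 or 2, WT 1 or 2), the log2 fold change in SF1-IR against WT was 1.35 to 1.5 for Prp6, with an edgeR adjusted p of 0.0129 to 0.0468, and 1.12 to 1.49 for Prp31, with an edgeR adjusted p of 0.0213 to 0.034. With the counts per gene, whose WT values do not match the exon-bin counts, Prp31 was 0.71 higher (edgeR adjusted p = 0.0572).

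Prp8, the large U5 protein that shapes the catalytic centre, was at 51.3 and 46.9 CPM in SF1-IR, against 32.0 and 33.0 CPM in WT. The groups did not overlap, and the change missed the threshold of 0.01 (log2 fold change 0.60, SE 0.11, edgeR adjusted p = 0.0238). Prp8 passed it at about the same fold by DESeq2 (0.60, DESeq2 adjusted p = 0.000181) and in edgeR on genes with at least 10 counts in every library (0.62, edgeR adjusted p = 0.00333). In Hrb87F-IR, Prp8 was at 39.8 and 35.2 CPM, between the other groups (log2 fold change 0.21, SE 0.11, edgeR adjusted p = 0.45). Exons of Prp8 overlap CG8407 on the opposite strand. From bins that overlap no other gene, its log2 fold change was 0.58 in SF1-IR (edgeR adjusted p = 0.0457). For Hrb87F-IR it was then 0.03 (edgeR adjusted p = 0.927). Prp3, a U4/U6 protein, was at 12.7 and 11.6 CPM in SF1-IR, 8.30 and 9.15 CPM in Hrb87F-IR, and 9.80 and 8.50 CPM in WT. Its log2 fold change in SF1-IR was 0.41 (SE 0.16, edgeR adjusted p = 0.221). Prp38, which joins with the B complex, overlapped WT in SF1-IR, with 4.23 and 4.39 CPM there, 3.35 and 3.19 CPM in Hrb87F-IR, and 4.0 and 4.82 CPM in WT.

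**Figure D3:**
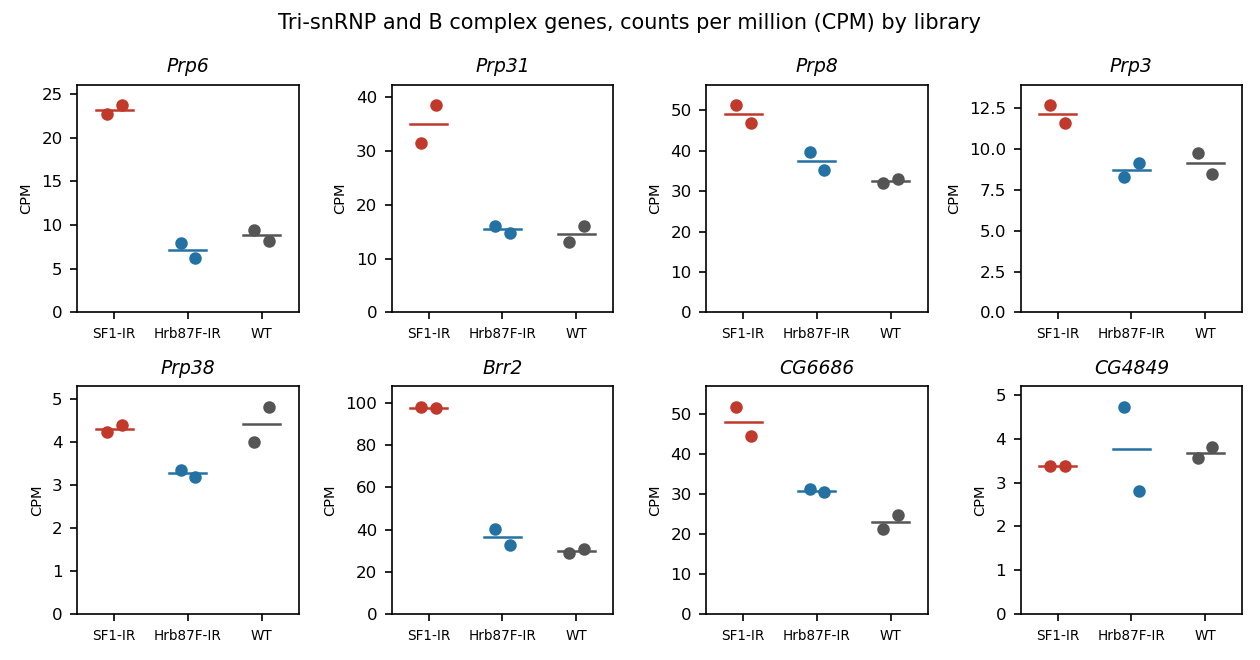
Level (CPM, axis from 0) of 5 tri-snRNP and B complex members and of Brr2, CG6686 and CG4849, which are outside the list of 38. Each point is a library and each bar the mean of 2; the SF1-IR points of Prp6, Prp31, Prp8, Prp3, Brr2 and CG6686 lie above all other points, and those of Prp38 and CG4849 do not.

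Set directly against Hrb87F-IR, a difference not taken against WT, SF1-IR was higher for the same 2 genes. Prp6 was 1.70 higher on the log2 scale in SF1-IR than in Hrb87F-IR (SE 0.17, edgeR adjusted p = 0.0035), and Prp31 was 1.18 higher (SE 0.16, edgeR adjusted p = 0.00909). They were the only 2 of 35 members called higher (5.71%, against 1.33% of all genes), and 0 were called lower, against 0.8% of all genes. At an unadjusted p under 0.05, 6 members were higher (17.1%, against 7.77% of all genes) and 2 were lower (5.71%, against 11.5%). All 5 tri-snRNP and B complex genes were higher in SF1-IR, by 0.39 to 1.70 with a median of 0.48, and the median of all 35 members was 0.19, beside 0.04 over all genes. From the bins that overlap no other gene, Prp31 was 1.22 higher (edgeR adjusted p = 0.0124). Without 1 library, the log2 difference was 1.54 to 1.93 for Prp6, and 1.03 to 1.32 for Prp31. Prp6 kept its call without WT 1 or WT 2 and Prp31 without WT 1, and the calls were lost without any other library (SF1-IR 1 or 2, Hrb87F-IR 1 or 2, and WT 2 for Prp31).

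The rise of Prp6 and Prp31 ran along the whole gene. All 4 exon bins of Prp6 with counts were higher in both SF1-IR libraries than in both WT libraries, by log2 ratios of the means of 0.85 to 1.95. The fifth Prp6 bin, a stretch of 3′-UTR, had 0 counts in every library. All 4 bins of Prp31 were likewise higher in both SF1-IR libraries than in WT, by 0.81 to 1.42. Of the 14 bins of Prp8, 12 had a higher mean in SF1-IR than in WT, and 10 were higher in both libraries, with ratios from -0.55 to 1.27. In Hrb87F-IR the ratios ran from -1.28 to -0.27 for Prp6, from -0.43 to 0.21 for Prp31 and from -0.60 to 0.60 for Prp8. In each of these genes and in both knockdowns, the bin at the 5′ end had the lowest ratio. The same WT means enter the ratios of both knockdowns, and the Prp6 bin had 21 and 52 counts in WT. Tested against the change of its whole gene (edgeR's diffSpliceDGE), this bin had an unadjusted p of 0.452 (Prp6), 0.192 (Prp31) and 0.0474 (Prp8) for SF1-IR. The values for Hrb87F-IR were 0.226 (Prp6), 0.200 (Prp31) and 0.183 (Prp8).

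**Figure D4:**
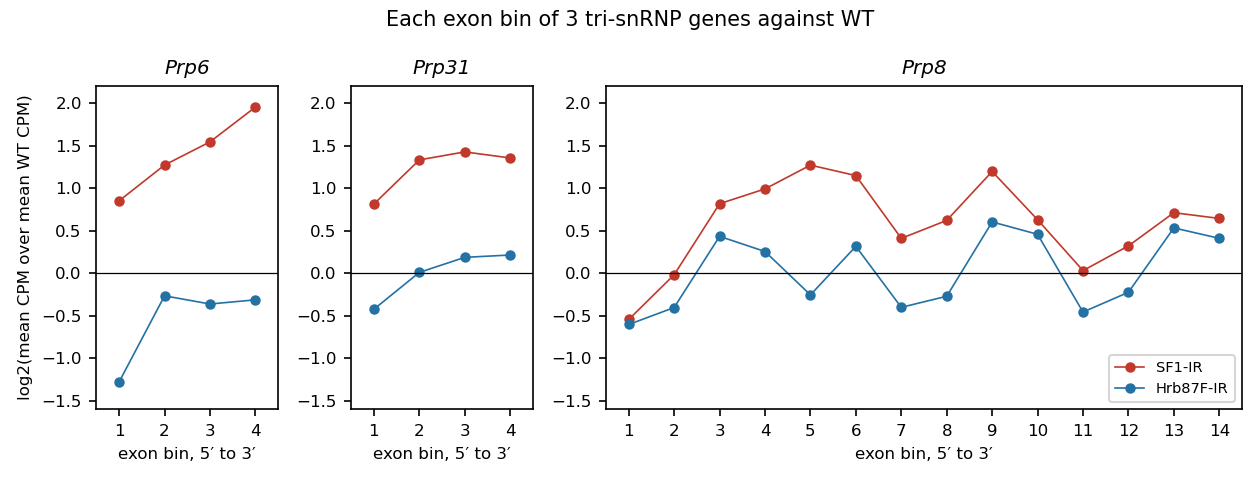
Log2 ratio of the mean CPM in SF1-IR (red) and Hrb87F-IR (blue) over the mean CPM in WT for each exon bin with counts of Prp6, Prp31 and Prp8, ordered 5′ to 3′. All SF1-IR points of Prp6 (0.85 to 1.95) and Prp31 (0.81 to 1.42) lie above 0, and the first bin is the lowest in each gene.

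Exon use compares the change of 1 bin with that of its whole gene. It could be tested for 115 bins of 26 members, since 9 members have 1 bin. In SF1-IR, 1 of 115 bins (0.87%) passed an unadjusted p of 0.01 with edgeR's diffSpliceDGE, where 0.972% of all 53818 bins did. In Hrb87F-IR, 0 of 115 bins passed, where 0.656% of all bins did, and at an unadjusted p under 0.05, 1 was used more and 0 were used less, against 0.799% and 1.2% of all bins. By limma's diffSplice, 4 of 115 member bins passed in SF1-IR (3.48%, against 1.71% of all bins), and 1 passed in Hrb87F-IR (0.87%, against 1.53%). After adjustment over all bins, no member bin passed 0.05 in either knockdown. The median size of the log2 change in use was 0.15 for member bins in SF1-IR, beside 0.21 for all bins, and 0.18 beside 0.23 in Hrb87F-IR.

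The bin that passed was E001 of snRNP-U1-70K, in the 3′-UTR, on chromosome 2L from 6968711 to 6969824. It held 13.8% and 17% of the gene's bin counts in SF1-IR, against 23.6% and 35.4% in WT, and 21% and 22% in Hrb87F-IR. Its use was 0.92 lower on the log2 scale in SF1-IR (edgeR unadjusted p = 0.00722, adjusted p = 0.854) and 0.43 lower in Hrb87F-IR (edgeR unadjusted p = 0.207). The counts of this bin were 211 and 258 in SF1-IR, against 258 and 276 in WT. snRNP-U1-70K, which encodes the U1 protein that binds the first stem loop of the U1 RNA, was as a gene at 21.9 and 19.2 CPM in SF1-IR, 15.6 and 14.1 CPM in Hrb87F-IR, and 16.5 and 14.4 CPM in WT. The log2 fold change of the gene in SF1-IR was 0.42 (SE 0.14, edgeR adjusted p = 0.161).

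At an unadjusted p under 0.05, 5 of 115 member bins were used less in SF1-IR (4.35%, against 0.786% of all bins) and 0 were used more, against 1.31%. They lay in snRNP-U1-70K, Sf3b2, Prp8 and hfp, and all 5 were in UTRs of these genes. Sf3b2 E001, a 3′-UTR bin on chromosome 2L from 3026252 to 3026532, had 9 and 10 counts in SF1-IR, 18 and 22 counts in Hrb87F-IR, and 29 and 47 counts in WT. Prp8 E014, the 5′-UTR bin at the start of the gene, held 1.81% and 2.00% of the gene's bin counts in SF1-IR, against 3.2% and 5.3% in WT, with Hrb87F-IR at 2.72% and 2.22%. hfp E005, also 5′-UTR, held 3.97% and 2.5% in SF1-IR, against 6.13% and 5.29% in WT, with Hrb87F-IR at 4.38% and 4.92%. For each of these bins the SF1-IR libraries were both below WT, and none passed the threshold of 0.01 but the bin of snRNP-U1-70K.

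Outside the tri-snRNP, no complex had a called member in either knockdown. In the U1 snRNP, snf was at 12.3 and 13.1 CPM in SF1-IR, 14.7 and 16.5 CPM in Hrb87F-IR, and 15.2 and 17.3 CPM in WT. It was the member lower in SF1-IR at an unadjusted p under 0.05 (log2 fold change -0.35, SE 0.14, edgeR adjusted p = 0.225). snRNP-U1-C, which helps U1 to hold the 5′ splice site, differed from WT by 0.17 on the log2 scale in SF1-IR and by 0.04 in Hrb87F-IR. U2A was measured at 1.71 and 1.19 CPM in SF1-IR, 1.08 and 0.907 CPM in Hrb87F-IR, and 1.37 and 1.55 CPM in WT. Its log2 fold change of -0.55 in Hrb87F-IR was among the 3 lowest there, with a large error (SE 0.49, edgeR adjusted p = 0.678). The 1 bin of U2A overlaps CG12107 on the opposite strand.

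The median log2 fold change of the 7 Sm ring genes was 0.11 (SF1-IR) and -0.01 (Hrb87F-IR), and 0 of 7 had an unadjusted p under 0.05 in either. SmB had the third highest value of all members in SF1-IR, on libraries that differed among themselves. It was at 2.88 and 5.47 CPM in SF1-IR, 1.49 and 3.41 CPM in Hrb87F-IR, and 2.30 and 2.63 CPM in WT (log2 fold change in SF1-IR 0.76, SE 0.48, edgeR adjusted p = 0.5). SmD1 was at 1.69 and 2.00 CPM in SF1-IR, 1.54 and 1.87 CPM in Hrb87F-IR, and 1.87 and 0.478 CPM in WT, with log2 fold changes of 0.65 (SF1-IR) and 0.54 (Hrb87F-IR). Without WT replicate 2 these were 0.04 and -0.11, and without WT replicate 1 they were 1.94 and 1.83, none of them called. The abundant SmD2 differed little between groups, at 24.1 and 22.8 CPM in SF1-IR, 20.8 and 23.1 CPM in Hrb87F-IR, and 23.9 and 25.7 CPM in WT. For SmD3, SmE, SmF and SmG, SF1-IR gave log2 fold changes from -0.26 to 0.12, and Hrb87F-IR from -0.23 to 0.11.

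The SF3a and SF3b genes, which bind with U2 at the branch point, were not called in any contrast. In SF1-IR, 3 of 3 SF3a genes and 4 of 5 SF3b genes were below 0, with medians of -0.20 and -0.08, where 6038 of all 11753 genes were below 0. Of these 8 genes, 0 had an unadjusted p under 0.05, where 8.26% of all genes were higher and 11.4% lower. Phf5a, the SF3b subunit that forms the branch point pocket together with Sf3b1, was lowest in both knockdowns. Its level was 4.81 and 7.78 CPM in SF1-IR, 5.35 and 4.74 CPM in Hrb87F-IR, and 8.22 and 9.59 CPM in WT. All knockdown libraries were below WT (log2 fold change -0.50 in SF1-IR, SE 0.26, edgeR adjusted p = 0.372, and -0.82 in Hrb87F-IR, SE 0.26, edgeR adjusted p = 0.199), and both contrasts share the WT libraries.

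Sf3b5, a small SF3b subunit, was at 5.74 and 6.04 CPM in SF1-IR, 9.12 and 8.30 CPM in Hrb87F-IR, and 7.69 and 7.51 CPM in WT. It stood below WT in SF1-IR and above WT in Hrb87F-IR, and the direct contrast was -0.56 (SE 0.16, edgeR adjusted p = 0.0967). noi was at 6.91 and 5.23 CPM in SF1-IR, 4.51 and 5.53 CPM in Hrb87F-IR, and 6.29 and 8.06 CPM in WT. Its log2 fold change in Hrb87F-IR was -0.52 (SE 0.23, edgeR adjusted p = 0.366). The 1 bin of noi overlaps PolZ2 on the opposite strand. Sf3b1 was at 23.2 and 24.0 CPM in SF1-IR, 28.7 and 25.8 CPM in Hrb87F-IR, and 23.0 and 27.0 CPM in WT, groups that overlapped. Sf3b3 was compared between the knockdowns alone, from the counts per gene, with 395 and 529 reads in SF1-IR, against 246 and 205 in Hrb87F-IR. The log2 difference was 0.98 (SE 0.19, edgeR adjusted p = 0.0343). LSm3 had 32 and 34 reads in SF1-IR, against 25 and 46 in Hrb87F-IR, which overlapped.

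pea was the member with the highest value in Hrb87F-IR and had a like value in SF1-IR. It was at 8.28 and 7.03 CPM in SF1-IR, 8.03 and 7.61 CPM in Hrb87F-IR, and 4.87 and 5.21 CPM in WT. All 4 knockdown libraries were above both WT libraries (log2 fold change 0.60 in SF1-IR, SE 0.17, edgeR adjusted p = 0.0993, and 0.63 in Hrb87F-IR, SE 0.17, edgeR adjusted p = 0.147). The same WT libraries enter both values, and the direct contrast was -0.03. hfp, a factor that helps U2AF at the 3′ splice site, was at 68.7 and 58.8 CPM in SF1-IR, 87.2 and 80.4 CPM in Hrb87F-IR, and 61.3 and 71.4 CPM in WT. Its log2 fold change in Hrb87F-IR was 0.34 (SE 0.13, edgeR adjusted p = 0.279). barc had log2 fold changes of 0.26 (SF1-IR) and 0.15 (Hrb87F-IR).

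**Figure D5:**
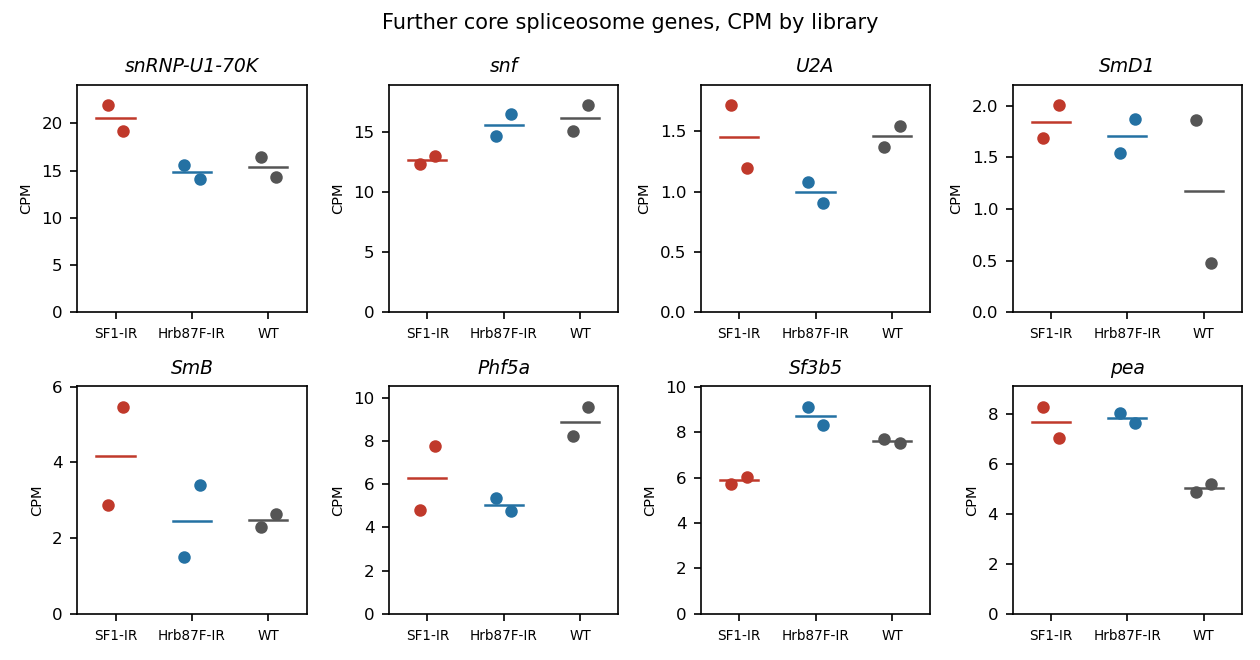
Level (CPM, axis from 0) of 8 further core spliceosome genes in the libraries of SF1-IR, Hrb87F-IR and WT, with bars at the mean of 2. The knockdown points of pea lie above WT (4.87 and 5.21 CPM) and those of Phf5a below WT (8.22 and 9.59 CPM), and no gene shown passed an adjusted p of 0.05.

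The Prp19 complex and related genes spanned a narrow range. Their 6 log2 fold changes ran from -0.19 to 0.15 in SF1-IR and from -0.41 to -0.06 in Hrb87F-IR. The lowest was Bx42 in Hrb87F-IR, which was at 13 and 12.4 CPM in SF1-IR, 11.1 and 10.7 CPM in Hrb87F-IR, and 13.7 and 15.3 CPM in WT (log2 fold change -0.41, SE 0.14, edgeR adjusted p = 0.225). Prp19 (the ubiquitin ligase), Cdc5, crn (the fly Clf1), Tango4 (PLRG1) and fand (Syf1) had no value beyond 0.26 in either knockdown. LSm7 was at 8.10 and 5.82 CPM in SF1-IR, 4.20 and 3.83 CPM in Hrb87F-IR, and 5.21 and 5.15 CPM in WT, with the groups apart and a direct contrast of 0.79 (SE 0.22, edgeR adjusted p = 0.0921). Prp18 had log2 fold changes of 0.24 (SF1-IR) and -0.03 (Hrb87F-IR), and its 1 bin overlaps P5cr on the opposite strand.

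Further spliceosome genes, from a list of 33 of which 28 had exon-bin counts, also included tri-snRNP genes called in SF1-IR. Of these 28 genes, 2 were called higher and 0 lower, where 1.27% and 1.41% of all genes were. At an unadjusted p under 0.05, 6 were higher and 1 was lower, where 8.26% and 11.4% of all genes were, and the median was 0.06, beside -0.02 over all genes. Both genes called encode tri-snRNP proteins. Brr2, the U5 helicase that unwinds U4 from U6, was at 98.2 and 97.4 CPM in SF1-IR, 40.4 and 32.9 CPM in Hrb87F-IR, and 29.0 and 30.9 CPM in WT (log2 fold change in SF1-IR 1.71, SE 0.13, edgeR adjusted p = 0.00122). CG6686, the fly homologue of human SART1, was at 51.7 and 44.3 CPM in SF1-IR, 31.1 and 30.4 CPM in Hrb87F-IR, and 21.2 and 24.6 CPM in WT (log2 fold change in SF1-IR 1.07, SE 0.13, edgeR adjusted p = 0.00529). Without 1 library, the log2 fold change over WT in SF1-IR was 1.66 to 1.82 for Brr2, called in 4 of 6 such fits (not without SF1-IR 1 or WT 2), and 0.95 to 1.24 for CG6686, called in 0 of 6.

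Other tri-snRNP genes of that list were not called in SF1-IR. CG4849, the fly Snu114, a GTPase of U5, was at 3.38 and 3.39 CPM in SF1-IR, 4.74 and 2.82 CPM in Hrb87F-IR, and 3.57 and 3.81 CPM in WT. U4-U6-60K, the fly Prp4 of U4/U6, was at 2.11 and 2.13 CPM in SF1-IR, 1.07 and 1.70 CPM in Hrb87F-IR, and 0.993 and 0.920 CPM in WT (log2 fold change in SF1-IR 1.15, SE 0.46, edgeR adjusted p = 0.227). hoip, which binds U4 RNA, had overlapping groups, at 2.56 and 2.63 CPM in SF1-IR and 2.90 and 1.27 CPM in WT. The lowest gene of the list in SF1-IR was CG9346, the fly U2SURP, at 15.8 and 17.8 CPM in SF1-IR, 27.0 and 24.1 CPM in Hrb87F-IR, and 25.6 and 28.9 CPM in WT (log2 fold change -0.70, SE 0.13, edgeR adjusted p = 0.0242). In Hrb87F-IR, 0 of 28 genes were called, where 0.0596% of all genes were, and the median was 0.13, beside -0.03 over all genes.

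Genes that assemble the Sm ring on the snRNAs, through the SMN complex and the arginine methyltransferases, were listed together with Phax, coil and WDR79. Of this list, 0 of 13 were called in either knockdown. The median log2 fold changes were 0.41 (SF1-IR) and 0.39 (Hrb87F-IR) over the same WT libraries, beside -0.02 and -0.03 over all genes. The 13 include Gem4b, which was near the floor at 0 to 25 counts per library. At an unadjusted p under 0.05, 3 of 13 were higher in SF1-IR, where 8.26% of all genes were, and 2 of 13 were higher in Hrb87F-IR, where 7.75% were. csul, the fly PRMT5 that methylates Sm proteins, was at 7.01 and 5.89 CPM in SF1-IR, 5.59 and 7.44 CPM in Hrb87F-IR, and 4.62 and 3.02 CPM in WT. All knockdown libraries were above WT (log2 fold change 0.75 in SF1-IR, SE 0.27, edgeR adjusted p = 0.183, and 0.77 in Hrb87F-IR, SE 0.27, edgeR adjusted p = 0.243). Phax, the adaptor for export of snRNAs from the nucleus, was at 6.37 and 6.19 CPM in SF1-IR, against 10.8 and 11.0 CPM in Hrb87F-IR, with WT at 7.78 and 6.33 CPM. The direct contrast was -0.80 (SE 0.17, edgeR adjusted p = 0.043).

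The members called in SF1-IR, Prp6 and Prp31, both lie on chromosome arm 3L, as does Prp3. The median log2 fold change in SF1-IR was 0.26 for the 9 members on 3L, and -0.02 for all 2304 genes tested on this arm. Members on the other arms had medians between -0.19 and 0.11 there. The spread between replicates of the members was within that of the series, with a median absolute log2 ratio between the 2 libraries of 0.18 (SF1-IR), 0.13 (Hrb87F-IR) and 0.19 (WT), beside 0.25, 0.19 and 0.25 over all genes.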

How the data were processed

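Mapping, counting and the deposited tables were the authors' work. Per the labels and the study's methods, paired-end reads of stranded poly-A libraries were mapped with STAR 2.7.3a to BDGP6.22 and counted with featureCounts (Subread 2.0.0). The authors deposited raw counts per gene and raw counts per exon bin, without normalization. Their comparison tables, which hold DESeq2 and DEXSeq fold changes and p-values, were used only for bin positions, and 8 count columns that match no sample of the series were not used. In the WT libraries the 2 count tables do not match (SD of their log2 ratio 0.977 and 1.21 over 6602 genes, against at most 0.303 in the knockdowns), so bin counts were summed per gene. This sum counts both mates of a pair, and 78 broken position lines were left out.

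Genes were tested in edgeR 4.0.16 (R 4.3.3) with TMM, filterByExpr and the robust quasi-likelihood test, all 6 libraries in 1 fit without covariates. Calls were made at 0.01 after Benjamini-Hochberg adjustment of the p-values over all 11753 genes. Bin use was tested with diffSpliceDGE at an unadjusted p under 0.01. Alternatives used DESeq2 1.42.0, limma 3.58.1, other scalings, filters and samples, and both tests were tested on simulated data. Figures used Python 3.11.15, pandas 2.3.3, numpy 2.4.6 and matplotlib 3.10.9. Bins are classed by the BDGP6.54 annotation, where 135 of 142 bins share a boundary, and no position was converted. Exons of another gene overlap 18 of the 35 members on the opposite strand, and the strand setting of the counting is not given in the sources used here. All bins of 4 members (U2A, Sf3a2, noi and Prp18) overlap another gene. Libraries were numbered by their labels, and the p-values measure only the spread between the libraries of a group.

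The members, lists and tests were chosen with earlier results of these data known. Values are given per library for members past an adjusted p of 0.05 in a contrast. The same holds for the 3 highest and 3 lowest members of each contrast with WT. For the highest and lowest level per length in a complex, WT means are given, except in the tri-snRNP and B complex. Bins are given where the unadjusted p is under 0.01. Other members, bins and genes with values were chosen after these were seen, as examples.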

Additional observations from a re-analysis of the deposited data

Results flagged for a closer look

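Of the 35 members and 28 further spliceosome genes, 3 differed between SF1-IR and Hrb87F-IR in edgeR's direct contrast at an adjusted p under 0.01. All 3 were higher in SF1-IR, where 1.33% of all 11753 genes were called higher and 0.8% lower. The log2 difference was 1.70 for Prp6 (higher in 2 of 2 SF1-IR libraries than in both Hrb87F-IR libraries, edgeR adjusted p = 0.0035), 1.18 for Prp31 (2 of 2 libraries, edgeR adjusted p = 0.00909) and 1.42 for Brr2 (2 of 2 libraries, edgeR adjusted p = 0.00218). All 3 encode tri-snRNP proteins. Groups of 2 libraries allow no test for an outlying library.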

How the results depend on the processing

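Single values were compared for 12 members, those past an adjusted p of 0.05 in a contrast or among the 3 highest or 3 lowest against WT. Of their 582 single values, 31 fell short of the threshold of 0.01 under an alternative. Only called values could do so, and these were Prp6 and Prp31 in SF1-IR, each against WT and against Hrb87F-IR. Against WT, the call held in 8 of 10 other settings for Prp6 and in 7 of 10 for Prp31. Against Hrb87F-IR, it held in 9 of 11 (Prp6) and 8 of 11 (Prp31). Fits without 1 library, given above, added further losses. Of the values not called at first, 3, all of Prp8 in SF1-IR, newly passed 0.01 (DESeq2, at least 10 counts and the crossed block below), and no called value changed direction. In 31 further values, none of them called, the sign differed. All genes called in SF1-IR against WT, 315 at first, were 483 without a filter, 765 with at least 10 counts in every library, 1056 by DESeq2, 30 from the 2 groups alone, 927 with the counts per gene and 876 at an adjusted p under 0.05. For Hrb87F-IR the 7 genes became 81, 228, 548, 0, 666 and 208 under the same settings. For SF1-IR against Hrb87F-IR the 250 genes became 402 without a filter, 677 with at least 10 counts, 991 by DESeq2, 0 with the counts per gene and 806 at 0.05. The cause of these differences was not tested.

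The 2 members called in SF1-IR became 3 by DESeq2, with at least 10 counts or at an adjusted p under 0.05, 0 from the 2 groups alone and 1 with the counts per gene. From the 2 groups alone the log2 fold change was 1.45 for Prp6 (edgeR adjusted p = 0.0241) and 1.32 for Prp31 (edgeR adjusted p = 0.0361). Those called against Hrb87F-IR became 0 with the counts per gene and 1 from bins that overlap no other gene, a setting chosen after the data were seen. The members' median log2 fold change was -0.22 (SF1-IR) and -0.44 (Hrb87F-IR) with the counts per gene, 0.11 in SF1-IR from bins that overlap no other gene, and 0.29 between the knockdowns from their counts per gene alone, also chosen after the data were seen.

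The labels give equal replicate numbers no shared origin, and the deviations of same-numbered libraries correlated at 0.514 between the knockdowns, -0.735 between SF1-IR and WT, and -0.558 between Hrb87F-IR and WT. With a replicate block, 45, 0 and 59 genes were called in the 3 contrasts, 0 members in each, and 0 member bins in SF1-IR. With a crossed block, in which the WT numbers were exchanged and which was added after the data were seen, 823, 277 and 777 genes, 837 and 660 bins, and 3 members and 3 member bins in SF1-IR were called.

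The 523 bins of SF1-IR and 353 of Hrb87F-IR became 918 and 825 by limma's diffSplice, with 4 and 1 member bins, and 184 and 49 at an adjusted p under 0.05, with 0 member bins. Without 1 library, with the lone library of a group assumed to vary like the others, 39 to 149 genes were called in SF1-IR, 0 to 7 in Hrb87F-IR and 18 to 261 between the knockdowns. The members called were 0 in SF1-IR and 0 to 2 between the knockdowns, and the members' median in SF1-IR was -0.045 to 0.152. The member bins called in SF1-IR were 0 to 2, and all bins in Hrb87F-IR were 185 to 447.

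The largest SEs of members against WT were those of the low SmD1 (0.66), U2A (up to 0.49) and SmB (0.48), whose changes were not called.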
